A study of Caenorhabditis elegans with 2 samples.

Results

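The translation initiation and elongation factor genes of the nematode *Caenorhabditis elegans* were examined for binding by LSY-2, a C2H2 zinc finger transcription factor known for its part in specifying the left member of a pair of taste neurons. They were chosen by symbol alone, as protein-coding genes whose symbol begins with eif-, eef-, ife-, iff-, ifg- or inf- followed by a number in the Ensembl annotation of assembly WBcel235. The rule found 40 of 19985 protein-coding genes. They comprised 32 initiation factor genes, 6 elongation factor genes (eef-) and 2 genes for eIF5A (iff-), which was named as an initiation factor but acts in elongation and is given on its own. The 32 were classed by symbol too, and include *eif-4A3*, whose human counterpart belongs to the exon junction complex. Some factors carry other symbols and were not members, among them *egl-45*, which encodes the A subunit of eIF3.

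Chromatin immunoprecipitation followed by sequencing (ChIP-seq) had been run on 2 biological replicates of mixed-stage embryos, pooled from males and females, and no second condition was sampled. The animals were of strain OP367, which carries the mutation unc-119(tm4063) and the integrated transgene wgIs367 expressing LSY-2 tagged with enhanced green fluorescent protein. The signal thus reports the tagged protein from a transgene, averaged over all cells of whole embryos. The authors deposited, on build ce11, a list of 30000 peaks for each replicate, a list of 30000 for the pooled replicates, and the 2568 pooled peaks that passed their threshold on the irreproducible discovery rate (IDR), a measure of how well peaks repeat between replicates. A gene was counted as having a summit where the summit of an IDR peak fell in its promoter window, which reached 1000 bp upstream and 300 bp downstream from any annotated 5' end. Peaks were ranked within each list by the authors' signal value, rank 1 being the strongest. Signal values are the authors' own and are not on a shared scale between lists, so the replicates were compared by rank. Read depth is unknown from these files. Control libraries were not used here, and whether any promoter signal is shared with other immunoprecipitations was not tested.

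Translation begins when the small ribosomal subunit, helped by eIF1, eIF1A and the large eIF3 complex, receives initiator tRNA from the GTP-binding trimer eIF2 and is brought to the capped mRNA by eIF4E, eIF4G and the helicase eIF4A. The exchange factor eIF2B recharges eIF2 with GTP, and phosphorylation of the eIF2 alpha subunit under stress lowers initiation. In elongation, eEF1A delivers each aminoacyl-tRNA to the ribosome, eEF1B subunits recharge eEF1A, and eEF2 moves the ribosome along the mRNA. Worms have several paralogues of some of these factors, with differing use in germline and soma.

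An LSY-2 summit lay in the promoter window of 30 of the 40 genes (75%), beside 12.6% of all protein-coding genes. The genes with a summit were 5 of 6 elongation factors (83.3%), 23 of 32 initiation factors (71.9%) and both eIF5A genes. For comparison, 73 of 81 cytosolic ribosomal protein genes (90.1%) and 15 of 32 aminoacyl-tRNA synthetase genes (46.9%) had one. These shares are descriptions of the gene groups and were not tested against each other. Among genes with a summit, the median best rank was 645 for the 30 translation factors, 1053 for all genes, 207 for ribosomal protein genes and 1233 for synthetase genes. The best ranks of the translation factors ran from 12 at *eef-1A.1* to 2515 at *eif-2D*, close to the last rank of 2568.

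**Figure D1:**
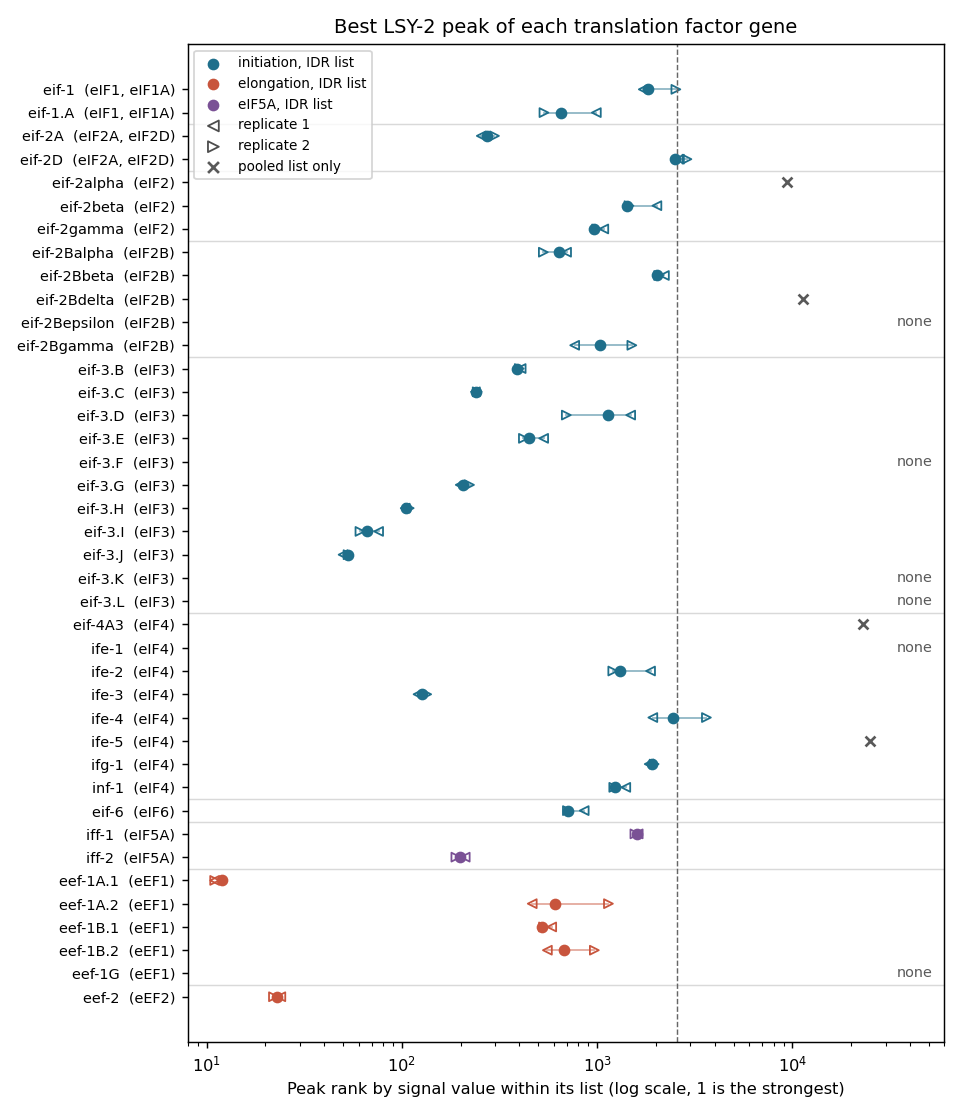
Rank of the best LSY-2 peak of each of the 40 genes, on a logarithmic axis, grouped by complex. Filled points are ranks in the IDR list, open triangles joined by a line are ranks of the overlapping peak in each replicate, crosses are genes with a summit in the pooled list alone, "none" marks genes with no pooled summit, and the dashed line is rank 2568. The peaks of *eef-1A.1* and *eef-2* lie furthest to the left, at ranks 12 and 23.

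The strongest peaks of the group lay in the promoter windows of the central elongation factor genes *eef-1A.1* and *eef-2*, each shared with a divergent gene. *eef-1A.1* (WBGene00001168, chromosome III, 6970026 to 6971712), which encodes eEF1A, had a peak from 6971873 to 6972344 with a signal of 2273.7 and rank 12. It ranked 11 in replicate 1, with a signal of 1142.1, and 11 in replicate 2, with a signal of 1149.3. Its summit lay 397 bp upstream of *eef-1A.1* but only 144 bp upstream of the divergent gene *rfc-4*, a replication factor C subunit gene, so the peak is not assigned to either. *eef-1A.2* (WBGene00001169, chromosome X, 7823654 to 7825769), the second eEF1A gene, had an unshared summit 346 bp upstream, with a signal of 93.4 and rank 609. Its peak ranked 465 in replicate 1 and 1142 in replicate 2, so the replicates differed more at this gene than at *eef-1A.1*, and the ranks of the paralogues did not overlap. The coding sequences of both genes were 94.0% identical (84 mismatches over 1389 aligned bases). The 101 bp windows centred on their summits aligned with 51.6% identity. Summit windows of other paralogues had values close to this. They were 57% for the eEF1B genes, 49% for the eIF5A genes and 50.5% for *ife-2* and *ife-4*. Windows of unrelated genes were not aligned, so these values do not show whether paralogue promoters are alike.

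The eEF1B subunit genes had weaker peaks of like rank. *eef-1B.1* (WBGene00018846, chromosome III, 7972382 to 7973386) had its summit 4 bp downstream of its 5' end at rank 524, with ranks of 585 and 531 in replicates 1 and 2. That summit also lay in the window of *aco-2*, the mitochondrial aconitase gene, 335 bp upstream of it. *eef-1B.2* (WBGene00012768, chromosome IV, 15037331 to 15039551) had an unshared summit 146 bp upstream at rank 674, with ranks of 556 and 967. The replicate ranks of *eef-1A.2*, *eef-1B.1* and *eef-1B.2* overlapped, so their order is not resolved by these replicates. *eef-1G* (WBGene00008920, chromosome V), for the gamma subunit of eEF1, had neither an IDR summit nor a pooled summit in its window, and the nearest IDR summit was 24971 bp away.

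The summit windows of the elongation factor paralogues are shown because of the ranks of their peaks. At the eEF1A genes, whose coding sequences are nearly alike, the ranks differed. At the eEF1B genes the ranks were closer, and the coding sequences were 71.8% identical over 638 aligned bases. Coding lengths were 639 bp for *eef-1B.1* and 1320 bp for *eef-1B.2*, so much of *eef-1B.2* had no aligned counterpart. Each window is 101 bp of the RefSeq WBcel235 genome (ce11), 5′ to 3′ on the strand of the named gene, with the summit at its centre. Capitals mark, on either strand and with overlaps, the 5 hexamers whose share differed most between LSY-2 promoter summits outside the translation factors and their flanks, which are spelled out with the sequence comparison.
eef-1A.1, chrIII:6972059-6972159, minus strand: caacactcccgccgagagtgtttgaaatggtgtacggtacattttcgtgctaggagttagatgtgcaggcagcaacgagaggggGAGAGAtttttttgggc
eef-1A.2, chrX:7823258-7823358, plus strand: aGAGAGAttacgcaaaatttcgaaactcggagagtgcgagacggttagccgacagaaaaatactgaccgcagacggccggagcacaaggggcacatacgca
eef-1B.1, chrIII:7973332-7973432, minus strand: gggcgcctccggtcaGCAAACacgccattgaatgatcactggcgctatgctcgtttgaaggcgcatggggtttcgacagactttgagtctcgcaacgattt
eef-1B.2, chrIV:15037135-15037235, plus strand: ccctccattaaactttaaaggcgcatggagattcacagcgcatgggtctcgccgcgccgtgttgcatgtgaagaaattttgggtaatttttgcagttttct
Both eEF1A windows held GAGAGA once, near opposite ends, *eef-1B.1* held GCAAAC, and *eef-1B.2* held none of the 5.

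The eEF2 gene *eef-2* (WBGene00001167, 9163531 to 9166952 on chromosome I), which encodes the ribosomal translocase, had the second strongest peak of the group. The peak spanned 9163281 to 9163782, with a signal of 1768.3 and rank 23 in the IDR list. In replicate 1 it ranked 24 with a signal of 876.1, and in replicate 2 it ranked 22 with a signal of 898.1. Its summit lay 15 bp upstream of *eef-2* and 250 bp upstream of the divergent gene *clsp-1*. The replicate ranks of *eef-1A.1* and *eef-2* did not overlap with each other or with those of any other gene chosen by the symbol rule.

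Among initiation factors, the subunit genes of eIF3 held the strongest peaks. A summit lay at 8 of the 11 eIF3 genes, with a median best rank of 223, and 5 of the 11 (45.5%) had a summit of rank 250 or better, beside 1.82% of all genes. *eif-3.J*, for a loosely held subunit, had a signal of 1315.9 and rank 53 (replicate ranks 50 and 53), 948 bp upstream. *eif-3.I* had a signal of 1171.5 and rank 66 (replicate ranks 76 and 61), 223 bp upstream, and *eif-3.H* had a signal of 876.4 and rank 105 (replicate ranks 104 and 109), 254 bp upstream. These 3 were the strongest initiation factor peaks, and each held its place closely in both replicates. The summits of *eif-3.J* and *eif-3.I* lay at soft-masked bases, which mark repeats in the reference. *eif-3.G*, for an RNA-binding subunit, had a signal of 303.6 and rank 206 (replicate ranks 199 and 222), 324 bp upstream. *eif-3.C*, for a scaffold subunit, had a signal of 230.4 and rank 240 (replicate ranks 238 and 243), 247 bp upstream. *eif-3.B*, for a second scaffold subunit, had a signal of 134.8 and rank 389 (replicate ranks 408 and 399), 260 bp upstream. *eif-3.E* was close to it, with a signal of 120 and rank 446 (replicate ranks 532 and 419), 203 bp upstream, shared with B0511.17. *eif-3.D*, whose human counterpart can bind the cap, was weaker and less even between replicates, with a signal of 61.7 and rank 1130 (replicate ranks 1484 and 695), 215 bp upstream. The replicate ranks of the 4 strongest eIF3 genes did not overlap with one another, so their order held in both replicates. *eif-3.F*, *eif-3.K* and *eif-3.L* had no summit in the IDR list or the pooled list.

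The eIF3 peaks differed in how clearly they belonged to the eIF3 gene. The summit credited to *eif-3.J* lay 948 bp upstream, near the edge of the promoter window and inside the annotated span of the upstream gene *slc-25A46*, and a narrower window, of 500 bp upstream and 100 bp downstream, did not reach it. The *eif-3.I* summit lay 223 bp upstream of that gene and 247 bp upstream of the divergent gene *abtm-1*, and *eif-3.I* also had a weak second summit, of rank 2544, at an inner 5' end. The *eif-3.H* summit was nearer to C41D11.3 (116 bp) than to *eif-3.H* (254 bp), and the *eif-3.D* summit nearer to R08D7.4 (99 bp against 215 bp). The summits of *eif-3.B*, *eif-3.C* and *eif-3.G*, 260, 247 and 324 bp upstream, lay in no other gene's window. The gene of the A subunit, *egl-45*, which the symbol rule leaves out, had a summit of rank 1654, shared with *kcmf-1*. Of the other genes outside the rule that were looked up, *iffb-1*, the eIF5B gene, had no summit, and *clu-1*, whose yeast counterpart was found with eIF3, had one of rank 464, shared with *prp-40*.

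The genes that handle initiator tRNA had mostly weaker peaks. Of the eIF2 trimer, *eif-2gamma*, the GTP-binding subunit gene, had a signal of 68.7 and rank 967 (replicate ranks 1081 and 993), 147 bp upstream. *eif-2beta* had a signal of 53 and rank 1426 (replicate ranks 2022 and 1455), 220 bp upstream of an inner 5' end and inside the annotated gene, and it was lost when only the outermost 5' end was used. *eif-2alpha*, the gene of the subunit phosphorylated under stress, had no IDR summit in its window. The nearest was 1786 bp from its 5' end, and its best pooled summit, 46 bp downstream, had rank 9408 and a signal of 13.6. A summit thus lay at 2 of the 3 eIF2 genes.

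Of the 5 eIF2B genes, 3 had a summit. *eif-2Balpha*, for a regulatory subunit, had a signal of 90 and rank 640 (replicate ranks 697 and 530), 95 bp upstream, shared with *mut-7*. *eif-2Bgamma* had a signal of 66 and rank 1031 (replicate ranks 767 and 1505), 151 bp upstream, and a second summit of rank 2004. *eif-2Bbeta* had a signal of 40.8 and rank 2034 (replicate ranks 2209 and 2064), 128 bp upstream, and that summit was nearer to Y47H9C.8. *eif-2Bepsilon*, for the catalytic subunit, had no pooled summit, and *eif-2Bdelta* had a pooled summit of rank 11299 with a signal of 12.3.

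The genes of the single-chain factors eIF2A and eIF2D were far apart in rank. *eif-2A* had a signal of 198 and rank 274 (replicate ranks 255 and 298), 130 bp upstream, in no other gene's window. *eif-2D*, for a factor that can place tRNA on the small subunit without GTP, had a signal of 34.1 and rank 2515 (replicate ranks 2637 and 2881), 176 bp upstream, shared with *ndub-5*.

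For the factors that scan the mRNA, the eIF1A gene *eif-1.A* had a signal of 89.1 and rank 650 (replicate ranks 990 and 534), 380 bp upstream, shared with H06H21.37. The eIF1 gene *eif-1*, whose product helps choose the start codon, had a signal of 44.2 and rank 1823 (replicate ranks 1722 and 2529), 395 bp upstream, and only 23 bp upstream of *vps-24*. *eif-6*, whose product keeps the large ribosomal subunit from joining early, had a signal of 82.5 and rank 711 (replicate ranks 858 and 704), 305 bp upstream, shared with the proteasome gene *pbs-2*. The replicate ranks of *eif-1.A* and *eif-6* overlapped, and those of *eif-1* lay below both.

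Peaks at the cap-binding genes differed widely between paralogues. Of the 5 eIF4E genes, *ife-3* (WBGene00002061, chromosome V, 6584 to 7828) had the strongest, from 8082 to 8460, with a signal of 695.8 and rank 127. That peak ranked 121 in replicate 1, with a signal of 374.0, and 134 in replicate 2, with a signal of 320.8, and its summit lay 425 bp upstream in no other gene's window. *ife-2* had a signal of 55.8 and rank 1315 (replicate ranks 1876 and 1202), 189 bp upstream. *ife-4*, whose product resembles the mammalian cap-binding protein 4EHP, had a signal of 34.9 and rank 2438 (replicate ranks 1927 and 3625), 337 bp upstream. The ranks of *ife-3* were thus far better than those of *ife-2* and *ife-4* in both replicates, and those of *ife-2* and *ife-4* did not overlap, with 1876 and 1927 the nearest values. *ife-1*, whose product is known from germline P granules, had no pooled summit, and *ife-5* had a pooled summit of rank 25066 with a signal of 7.49. These 2 paralogues, both without an IDR summit, had the most alike coding sequences of the eIF4E genes, at 86.3% identity, against 60.3% to 70.3% for the other 9 pairs.

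The other eIF4 genes were also at low ranks. *inf-1*, the eIF4A gene, had a signal of 58 and rank 1241 (replicate ranks 1401 and 1216), 357 bp upstream, shared with *flap-1*. *ifg-1*, the eIF4G gene, had a signal of 42.5 and rank 1908 (replicate ranks 1847 and 1957), 575 bp upstream, and 31 bp upstream of M110.3. *eif-4A3*, a related helicase gene whose human counterpart belongs to the exon junction complex, had its nearest IDR summit 83651 bp away, and a pooled summit of rank 23101 with a signal of 7.96.

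The eIF5A genes also stood apart from each other. *iff-2* (WBGene00002065, chromosome II, 8559375 to 8561367) had a summit 72 bp upstream at rank 199, with a signal of 334.4 in the IDR list. That summit also lay in the window of F54C9.14 on the opposite strand, 863 bp from its 5' end. Its peak ranked 211 in replicate 1, with a signal of 149.4, and 189 in replicate 2, with a signal of 182.3. *iff-1* (WBGene00002064, chromosome III, 9745862 to 9747193), the paralogue known for its role in the germline, had rank 1602, with 1622 in replicate 1 and 1560 in replicate 2. Its summit lay 155 bp upstream of *iff-1* and 124 bp upstream of *cdk-1*, the gene of the mitotic kinase. The coding sequences were 79.5% identical over 482 aligned bases.

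The windows of 101 bp at the summits of *eif-3.G*, of the eIF4E paralogues *ife-3* and *ife-2* and of the eIF5A genes are shown in the same form. They lie under peaks of differing rank, with *ife-3* and *iff-2* ranked better than *ife-2* and *iff-1*.
eif-3.G, chrII:8442393-8442493, plus strand: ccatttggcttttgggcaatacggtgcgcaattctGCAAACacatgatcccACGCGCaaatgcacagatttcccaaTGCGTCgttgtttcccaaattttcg
ife-3, chrV:8203-8303, minus strand: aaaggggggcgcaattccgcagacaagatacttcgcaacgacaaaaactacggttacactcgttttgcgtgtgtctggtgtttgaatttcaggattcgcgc
ife-2, chrX:382848-382948, minus strand: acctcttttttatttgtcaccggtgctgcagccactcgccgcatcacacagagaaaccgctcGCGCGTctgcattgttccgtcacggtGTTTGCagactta
iff-2, chrII:8561389-8561489, minus strand: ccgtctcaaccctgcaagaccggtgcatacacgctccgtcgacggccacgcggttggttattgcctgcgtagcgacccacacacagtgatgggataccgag
iff-1, chrIII:9747298-9747398, minus strand: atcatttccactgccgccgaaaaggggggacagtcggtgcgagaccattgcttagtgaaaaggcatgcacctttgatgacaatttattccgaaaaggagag
*eif-3.G* held 3 of the 5 hexamers and *ife-2* held 2, whereas *ife-3*, with the better rank, held none, as did both eIF5A windows.

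Initiation and elongation factors were compared by rank. The 5 elongation factor genes with a summit had a median best rank of 524, between 12 and 674. The 23 initiation factor genes had a median of 711, between 53 and 2515, and 11 of them had a rank as good as the weakest elongation factor. In replicate 1 the medians over the same peaks were 465 and 858, and in replicate 2 they were 531 and 695. Elongation factors thus had the better median in each replicate, over peaks already chosen from the pooled replicates. With summits taken from a replicate alone, the medians were 465 and 858 in replicate 1 but 531 and 534 in replicate 2. Replicate 2 alone thus showed almost no difference. With only the 1284 strongest peaks the order of the medians turned, to 524 for elongation and 417.5 for initiation factors, because that list drops the weaker initiation factors. With 5 elongation factors, 3 of which lay between ranks 524 and 674, the difference was not tested. Without eIF3, 15 of 21 initiation factors had a summit (71.4%), with a median rank of 1241.

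The contrast changed with the number of strong peaks counted. Among the 100 strongest peaks, 2 of 6 elongation factors (33.3%) and 2 of 32 initiation factors (6.25%) had a summit, beside 0.811% of all genes and 32.1% of ribosomal protein genes. *eef-1A.1*, *eef-2* and *eif-3.I* were among these genes, each with a summit shared with a divergent gene. Among the 500 strongest, the elongation factors were still 2, the initiation factors 9 (28.1%), and the share of all genes was 3.25%. Among the 1000 strongest, 5 elongation factors (83.3%) and 13 initiation factors (40.6%) had one, beside 6.04% of all genes.

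**Figure D2:**
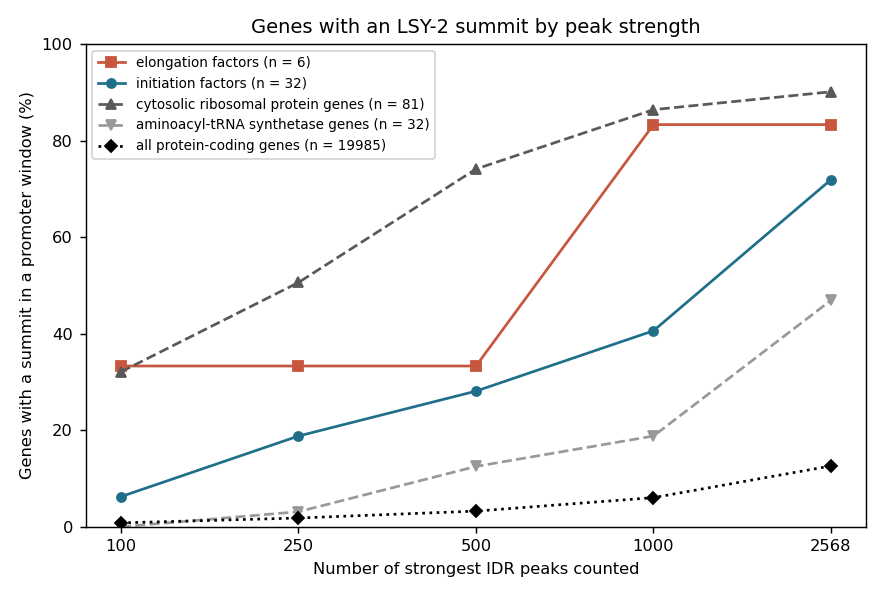
Share of genes with an LSY-2 summit in a promoter window (percent) against the number of strongest IDR peaks counted. Solid lines are elongation (n = 6) and initiation factors (n = 32), dashed lines are ribosomal protein and aminoacyl-tRNA synthetase genes, and the dotted line is all protein-coding genes. Initiation factors rise from 6.25% to 71.9%, between synthetase and ribosomal protein genes at each count.

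Summits lay upstream of the 5' end at 29 of the 30 genes, with *eef-1B.1* the exception, and at 2400 of the 2519 genes with a summit in all, so this position was common to bound genes. The median position was -221.5 bp, beside -225 bp for all 2519 genes with a summit. The promoter window covers more bases upstream than downstream, and trans-splicing in worms can place an annotated 5' end downstream of the true start of transcription. The best summit was shared with another gene's window at 17 of the 30 genes (56.7%), beside 59.2% of all genes with a summit. At each of these 17 a partner lay on the opposite strand, and at 7 of them a partner's 5' end was nearer to the summit. Counting only unshared summits left 14 of the 40 genes, beside 5.21% of all genes, and counting a summit for its nearest 5' end alone left 23, beside 8.84%. None of the 30 best summits lay within 250 bp of a tRNA, snoRNA or snRNA gene, beside 3.23% of all IDR summits in promoter windows.

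**Figure D3:**
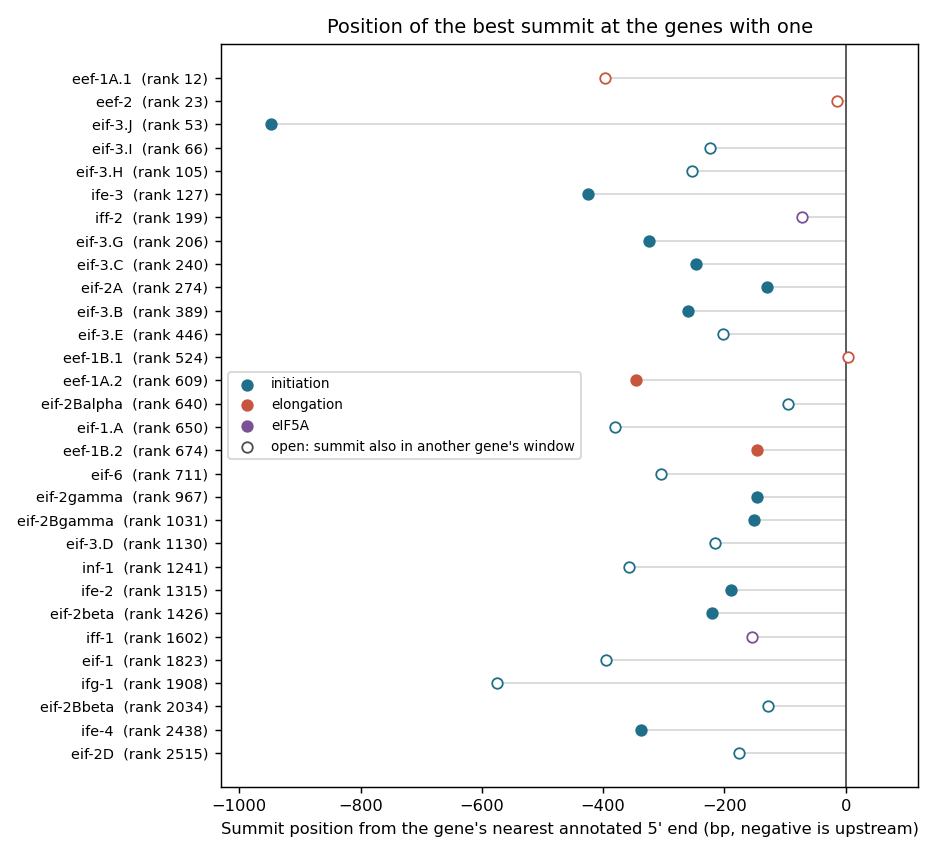
Position of the best summit of the 30 genes with one, in bp from the gene's nearest annotated 5' end, ordered by IDR rank. Open points are summits that also lie in another gene's window. All but *eef-1B.1*, at 4 bp, lie upstream, and *eif-3.J*, at -948 bp, lies furthest away.

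The count of genes with a summit was also taken in other ways. The 1284 strongest peaks left 22 of the 40 genes, beside 7.35% of all genes. The window of 500 bp upstream and 100 bp downstream left 28, beside 10.4%, without *eif-3.J* and *ifg-1*, and one of 2000 bp upstream and 500 bp downstream gave 31, beside 15.9%, with *eif-2alpha* added. Leaving out summits at soft-masked bases, which mark repeats in the reference, left 21, beside 10.2%. The 9 genes lost were *eef-1B.2*, *eif-2Bbeta*, *eif-2D*, *eif-2beta*, *eif-3.D*, *eif-3.I*, *eif-3.J*, *eif-6* and *ifg-1*.

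Across chromosomes the members were few on each. A summit lay at 10 of 12 members on chromosome I, beside 20.4% of all genes there, and at 8 of 12 on chromosome II, beside 12.9%. On III it was 6 of 7, beside 20.9%, and on IV 2 of 2, beside 12.1%. On X all 3 members (*eef-1A.2*, *ife-2* and *ife-4*) had one, beside 6.55% of X genes. On V only *ife-3* of 4 members had one, beside 7.01% of genes there.

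The replicates found most of these peaks. Of the 30 best peaks, 28 ranked within the first 2568 of both replicates, the exceptions being *eif-2D* (2637 and 2881) and *ife-4* (3625 in replicate 2). The ranks in the replicates differed by more than 1.5-fold at 7 genes, by most at *eef-1A.2* (2.46-fold) and *eif-3.D* (2.14-fold). The IDR list itself was drawn from the pooled replicates, so agreement among its stronger peaks is partly set by that choice. The members nearest the limit of the list were *eif-2D*, at rank 2515, inside it, and *eif-2alpha*, at pooled rank 9408, outside it. In the pooled list without a threshold, 34 of the 40 genes had a summit, beside 40.3% of all genes. The 6 genes without any pooled summit were *eef-1G*, *eif-2Bepsilon*, *eif-3.F*, *eif-3.K*, *eif-3.L* and *ife-1*.

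Hexamers were ranked on the 1781 promoter summits outside the translation factors, by how much more often the 101 bp summit window held them than windows 500 bp to each side. The 5 of largest difference were then counted at the 30 members. ACGCGC lay in 9 of the 30 member windows (30%) and in 0 of their 60 flanking windows, beside 19.8% of the other promoter summits. The hexamer GCAAAC lay in 8 member windows (26.7%) and in 0 flanks, beside 19.1% of the other summits. For GAGCGC the counts were 6 member windows (20%) and 1 flank (1.67%), beside 17.2% of the other summits. A further hexamer, GAGAGA, lay in 5 member windows (16.7%) and 4 flanks (6.67%), beside 20.2% of the other summits. The last, GACGCA, lay in 3 member windows (10%) and 2 flanks (3.33%), beside 18.8%. In the flanks of the other summits, the shares of these 5 ran from 1.57% for ACGCGC to 4.74% for GAGAGA. Both strands were searched, and the hexamers can overlap one another. The hexamers rich in G and C were counted in windows whose GC content was higher at member summits (median 48.0%) than at their flanks (40.6%), beside 46.5% at all promoter summits. A hexamer in a window is a match of letters and does not show a site.

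Common promoter elements were searched on both strands from 250 bp upstream to 49 bp downstream of the outermost 5' end. TTTCAG, a splice acceptor form, lay in 62.5% of member promoters and 51.7% of all 19973 promoters read. TATAAA lay in 42.5% and 38.0%, CCAAT in 40% and 45.5%, and GAGAGA in 15% and 21.8%. CACGTG, an E-box, lay in 0 of the 40 member promoters and in 5.83% of all promoters. In the 30 summit windows CACGTG was also at 0, beside 2.21% of all promoter summit windows, and TTTCAG lay in 1, beside 6.67%. CCAAT lay in 2 (6.67%), beside 17.2%, and GAGAGA in 5 (16.7%), beside 20.1%. TATAAA went the other way and lay in 3 (10%), beside 4.41%.

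Other genes of translation and its control were counted from a list of 36, of which 33 were in the annotation, and 19 of these (57.6%) had a summit, beside 12.6% of all protein-coding genes. Their median rank was 793, beside 1053 for all genes with a summit. Among genes acting with the factors, *abcf-2*, an ABCF family ATPase gene, had rank 26, shared with *ant-1.1* and T27E9.2 and 873 bp from its own 5' end. *abcf-1* had rank 174, *pab-1*, a poly(A)-binding protein gene, rank 186, shared with *rpl-30*, and *larp-1* rank 275. The release factor genes *erfa-1* and *erfa-3* had ranks 425 and 1727. Among regulators, *rheb-1*, a GTPase gene of the TOR pathway, had rank 108, *gcn-1* 557, *pek-1*, an eIF2 alpha kinase gene, 2057, and *daf-15*, the Raptor gene, 2200. The other eIF2 alpha kinase gene *gcn-2*, the eEF2 kinase gene *efk-1*, the TOR kinase gene *let-363*, the S6 kinase gene *rsks-1* and the deoxyhypusine synthase gene *dhps-1*, whose product modifies eIF5A, had no summit. Of the mitochondrial elongation factor genes, *tufm-1* had rank 154, *tufm-2* 1213 and *gfm-1* 2206, and *tsfm-1* had none. Shared summits were also those of *abcf-1* (with *scc-3*), *larp-1* (*wip-1*), *erfa-1* (*gad-1*), *erfa-3* (*math-33*), *rheb-1* (*spk-1*), *tufm-2* (*exoc-7*) and *gfm-1* (*rict-1*). Those of *gcn-1*, *pek-1*, *daf-15* and *tufm-1* lay in no other gene's window.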

How the data were processed

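In the lists the authors deposited on ce11, each peak has a signal value, a −log10 q-value (not used) and a summit offset. Per the deposited metadata, the IDR list was made from the pooled and both replicate lists, and its 2568 peaks were the 2568 of highest signal in the pooled list. The sources used here do not name the peak caller or the IDR cutoff. Lists on ce10 were not used here.

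Protein-coding genes and 5' ends came from Ensembl release 115 (WBcel235), and sequence from the RefSeq WBcel235 genome, where 99.8% of start codons read ATG. A replicate rank is that of the best overlapping peak (1 bp or more). Members and lists were chosen with earlier results of these data known. Every member is named. The counts of hexamers, small RNA genes and tandem genes, coding identity (global alignment), *egl-45*, *iffb-1* and *clu-1*, and the unshared and soft-masked alternatives were chosen after seeing values. Ribosomal protein genes and synthetases were taken by symbol. No test was run, since genes are not replicates. Summit assignment was tested on simulated data. Python 3.11.15, numpy 2.4.6, Biopython 1.88 and matplotlib 3.10.9 were used.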

Additional observations from a re-analysis of the deposited data

How the results depend on the processing

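The number of members with a summit stayed within 1.5-fold of 30 under 10 of 11 alternatives, from 21 without soft-masked summits and 22 with the 1284 strongest peaks to 34 without an IDR threshold. With only unshared summits, chosen after seeing the data, it fell to 14, with 12 initiation and 2 elongation factors. With summits at soft-masked bases left out there were 15 initiation factors. From a replicate alone, the members numbered 28 to 30, the initiation factors 21 to 23 and the elongation factors 5. *eif-2D* had no summit in either replicate's first 2568 peaks, *ife-4* none in replicate 2, and *eif-2Bdelta* gained one in replicate 1 alone. The median rank of initiation factors was 711, and 534 to 858 from a replicate alone, 417.5 with the 1284 strongest peaks and 1031 without an IDR threshold, which change which genes enter it. That of elongation factors was 524, and 465 to 531 from a replicate alone, 273.5 without soft-masked summits and 641.5 with unshared summits, which leave out 1 and 3 of the 5 genes. The elongation median was the lower number under each alternative but the 1284 strongest peaks, though from replicate 2 alone the medians were 531 and 534. Depth is unknown, so weak peaks near rank 2568 and the genes without a summit are limited by it to an unknown degree. No paired analysis was possible because the study has a single group.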

Other observations

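Some members follow another gene closely on the same strand, as genes of worm operons do, and operons themselves were not annotated here. With a gap of at most 500 bp to a same-strand gene upstream, 7 members were in such a tandem run, of which 4 had a summit, against 26 of the 33 others. Of all genes in such runs 8.84% had a summit, against 13.4% of the rest. For *eif-2alpha*, 132 bp downstream of *phb-1*, and *eif-3.F*, 3 genes downstream of *egli-1*, the leading gene of the run had a summit, of rank 83 and 2264. For *ife-5* the leading gene had none. Of the 4 members with a summit, *eif-2Bgamma* and *eif-3.C* had a leading gene with one, *sod-1* (rank 829) and *sys-1* (rank 958). The leading genes for *eef-1B.2* and *eif-2gamma* had none.

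*eif-2Bdelta*, which had no IDR summit, differed between the replicates. Its best summit ranked 2310 in replicate 1, with a signal of 20.0, and 22485 in replicate 2, with a signal of 4.44.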
